A study of Mus musculus with 6 samples.

Results

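The genes described here are 9 genes of lymphocyte killing: the granzymes Gzma, Gzmb, Gzmk and Gzmc, the pore protein gene Prf1, the granule membrane gene Nkg7, the cytokine gene Ifng, the death ligand gene Fasl and the receptor gene Klrd1. They were taken by symbol from the 34099 genes of the count tables, and each symbol matched 1 gene. Tumors came from wild-type male C57BL/6J mice, obtained at 8 weeks of age and older when the tumors were taken, in which cells of the mouse liver cancer line H22 had been injected into the left liver lobe. The 3 stress mice had been exposed to chronic unpredictable mild stress, a daily varied series of mild stressors, and the 3 control mice received the same tumor cells and were housed without stressors. Each tumor was dissociated whole, without a sort, and gave 1 droplet library in which RNA molecules are counted by molecular identifiers (UMIs). The comparison asks whether the killing genes of the tumor's lymphocytes differ with chronic stress, and which lymphocytes carry them. All 6 mice carried the same tumor cell line, so the data hold neither a liver without a tumor nor a second tumor line.

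Cytotoxic T cells and NK cells kill by releasing granules at the contact with a target cell: perforin opens the target's membrane, and granzymes, which are serine proteases, enter and cut proteins inside it. A second route runs through the Fas ligand, which engages the death receptor Fas on the target. Interferon gamma, made by the same lymphocytes and by helper T cells, acts on cells that carry its receptor and raises, among other things, their antigen presentation. Nkg7 encodes a membrane protein of the cytotoxic granule that takes part in its release, and Klrd1 encodes CD94, which pairs with NKG2 receptors and recognizes a nonclassical MHC molecule.

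In the GRCm38 annotation, Gzma and Gzmk lie on the minus strand of chromosome 13 (chr13:113093825-113100981 and chr13:113171608-113225908). Gzmc and Gzmb lie on the minus strand of chromosome 14 (chr14:56231441-56234656 and chr14:56258838-56262260), in a cluster of similar granzyme genes, so that reads could have been split between these copies and both counts are uncertain to that extent. Prf1 (chr10:61297833-61304680) and Ifng (chr10:118441046-118445892) share chromosome 10 and the plus strand. Nkg7 lies at chr7:43437073-43438249 on the plus strand, Fasl at chr1:161780689-161788495 on the minus strand and Klrd1 at chr6:129591782-129598775 on the plus strand.

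Promoter sequences of 8 of the 9 genes were taken from RefSeq (GRCm38.p6) for the bases from 250 to 11 before the annotated start. The sequences of Gzma, Prf1, Gzmb and Ifng are shown because their RNAs were distributed differently over the kinds of lymphocyte described below, and each is read 5′ to 3′ on the strand of its gene. Capitals mark the letters AGGTGT or their reverse complement ACACCT, the core bound by T-box factors such as T-bet and Eomes, and the letters TGAGTCA, bound by AP-1. These motifs were chosen after the promoters had been seen, and no marked motif overlapped another.
Gzma, chr13:113100992-113101231, minus strand: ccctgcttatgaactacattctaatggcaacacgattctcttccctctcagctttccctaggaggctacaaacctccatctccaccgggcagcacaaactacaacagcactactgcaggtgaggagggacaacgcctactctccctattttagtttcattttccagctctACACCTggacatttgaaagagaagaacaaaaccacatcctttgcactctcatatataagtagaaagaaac
Prf1, chr10:61297586-61297825, plus strand: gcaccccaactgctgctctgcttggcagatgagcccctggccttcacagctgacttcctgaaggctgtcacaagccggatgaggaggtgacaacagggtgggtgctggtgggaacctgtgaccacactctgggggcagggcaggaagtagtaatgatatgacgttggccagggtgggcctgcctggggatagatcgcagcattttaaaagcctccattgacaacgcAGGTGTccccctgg
Gzmb, chr14:56262345-56262584, minus strand: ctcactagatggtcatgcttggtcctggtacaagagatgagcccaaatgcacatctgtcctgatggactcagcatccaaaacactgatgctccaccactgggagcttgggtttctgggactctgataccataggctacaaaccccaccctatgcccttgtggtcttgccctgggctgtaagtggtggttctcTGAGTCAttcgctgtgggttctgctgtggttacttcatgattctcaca
Ifng, chr10:118440796-118441035, plus strand: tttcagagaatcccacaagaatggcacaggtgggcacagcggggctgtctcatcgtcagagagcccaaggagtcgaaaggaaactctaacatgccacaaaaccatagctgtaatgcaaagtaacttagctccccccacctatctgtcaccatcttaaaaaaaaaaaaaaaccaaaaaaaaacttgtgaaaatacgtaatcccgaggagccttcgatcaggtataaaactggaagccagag
The T-box letters stood in 3 of the 8 promoters, those of Prf1 (from 24 bases before the start), Gzma (from 80 bases) and Gzmk (at 232 and 169 bases), and in 11.5% of all 32851 promoters of this length. The Gzmk positions count from the RefSeq start. Its window, chr13:113180976-113181215, lies inside the span given above for the gene. The AP-1 letters stood in the Gzmb promoter, from 58 bases before the start, and in 4.35% of all promoters. The letters TGTGGT, bound by Runx factors, were found on either strand in 5 of the 8 promoters (Nkg7, Prf1, Gzma, Gzmc and Gzmb) and in 13.6% of all promoters, and they are not capitalized. Neither the T-box nor the AP-1 letters were found in the Ifng window.

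The authors annotated 58794 cells, of which 2490 were NK/T cells. Control mice 1 to 3 had 93, 674 and 126 NK/T cells and stress mice 1 to 3 had 269, 814 and 514. The median depth per NK/T cell was 2958, 3153 and 4376.5 UMIs in control mice and 4477, 4876.5 and 5923 UMIs in stress mice, so every stress library was deeper than every control library in these cells. The matrix headers name Cell Ranger 9.0.0 for the controls and 7.1.0 for the stress libraries, and this version and stress cannot be told apart. Any pair of libraries shared 13 to 40 cell barcodes, none of them among NK/T cells. A Cd3 UMI (Cd3d, Cd3e or Cd3g) was found in 92.9% to 97.9% of the class's cells per mouse, and the sum of 3 NK markers (Ncr1, Klrb1c and Klra8) reached only 15.1 to 37.9 CPM (counts per 1000000 UMIs of the cells summed), with Ncr1 at 0 in control mouse 1. The class therefore consisted mainly of T cells in these data. Of 5 dendritic markers, 2 were found in the NK/T cells of every mouse and Flt3, Xcr1 and Clec9a were at 0 in at least 1 mouse, and their sum was 32.4 to 42.8 CPM in control and 110 to 178 in stress mice. The sum of 4 tumor markers was 234 to 339 in control and 101 to 297 in stress mice. The part of these other RNAs and of depth in the comparisons of stress with control was not tested.

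The 9 genes were mainly RNAs of the NK/T class. Of all UMIs of a gene over the 6 tumors, NK/T cells held 87.8% for Gzma, 84.6% for Gzmb, 76.7% for Gzmk, 89.3% for Gzmc, 83.8% for Prf1, 87.8% for Nkg7, 88.3% for Ifng, 79.7% for Fasl and 74.3% for Klrd1, although the class made up 0.883% to 8.62% of a mouse's cells. The class was annotated on these same cells, so this is a description. At least 1 Gzmb UMI was found in 54.3% of NK/T cells (exact 95% binomial interval 52.4% to 56.3%, counting error only) but in 0.936% of endothelial cells, which should lack the gene, at medians of 4403 and 4538 UMIs per cell. For Nkg7 these shares were 85.9% and 1.34%, for Prf1 36.4% and 0.604%, and for Ifng 35.5% and 0.420%. Tumor cells, with a median of 27716 UMIs, held between 0.0554 (Gzmc) and 0.798 (Nkg7) CPM of these genes.

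**Figure D1:**
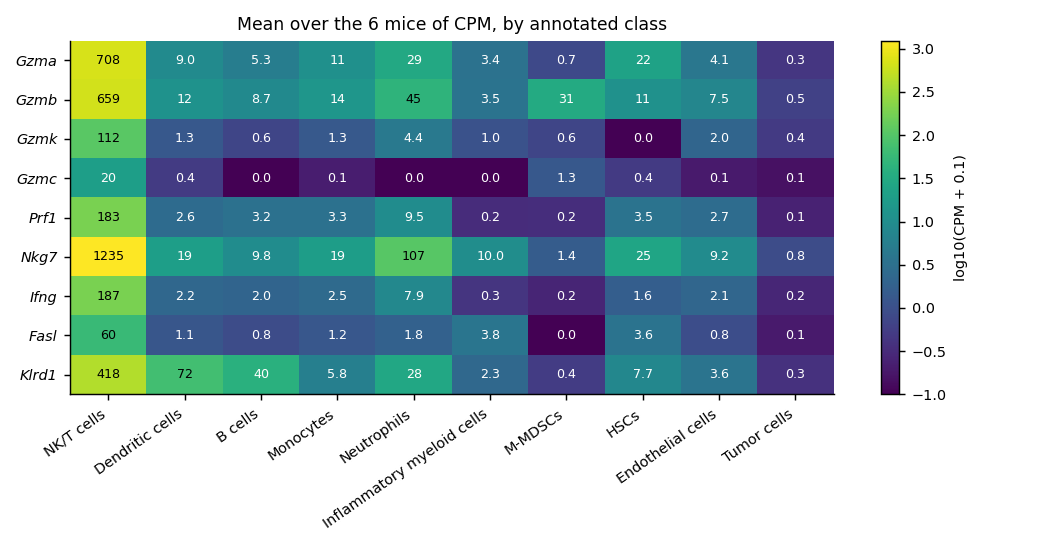
Mean level of each gene (rows) in each annotated cell class (columns), in CPM, averaged over the 6 mice. The color scale is log10 of the level plus 0.1 and the printed numbers are the levels. The NK/T column is the highest for all 9 genes, and the tumor column lies below 1 CPM throughout.

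Some signal lay outside the lymphocytes. Klrd1 reached 71.6 ± 24.6 CPM in dendritic cells (SD, n = 6 mice), and all 6 mice lay between 38.9 and 108. M-MDSCs, the monocytic suppressor cells of the annotation, held 31.4 ± 39.1 CPM of Gzmb, ranging from 2.58 in control mouse 1 to 106 in stress mouse 2. Nkg7 in neutrophils ranged from 0 in control mouse 3 to 326 in stress mouse 3, but this class had only 175 cells in all.

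Of 15 genes of the receiving side and of protection from granzymes, 10 were higher in every mouse's NK/T cells than in any mouse's tumor cells, 3 were higher in tumor cells (Bid, Ifngr2 and Serpinb6a) and 2 overlapped (Fadd and H2-T23). Fas, the receptor of the Fas ligand, was found at 1.38 ± 0.309 CPM in tumor cells (SD, n = 6 mice), against 82.0 ± 11.4 in endothelial cells and 175 ± 85.2 in inflammatory myeloid cells. Ifngr1, a chain of the interferon gamma receptor, was at 39.4 ± 9.42 in tumor cells, 197 ± 34.7 in monocytes and 461 ± 75.9 in NK/T cells themselves. Ifngr2, the other chain, was at 34.0 ± 8.51 in tumor cells, 73.9 ± 22.4 in monocytes and 15.5 ± 4.28 in NK/T cells, where it was the lowest of the 10 classes by mean. Serpinb9, an inhibitor of granzyme B, was at 20.3 ± 5.71 in tumor cells and 224 ± 63.2 in NK/T cells, and Serpinb6b at 35.9 ± 11.8 and 317 ± 96.9, whereas Serpinb6a, another serpin of the same clade, was at 305 ± 36.5 in tumor cells and 186 ± 51.4 in NK/T cells. As differences between annotated classes the values carry no test, and the shares of all genes that lie wholly higher or lower between these 2 classes were not counted.

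Stress and control mice were compared first over all NK/T cells. UMIs were summed over the NK/T cells of each mouse and divided by the total of those cells, so that a level mixes how many of the cells carry a gene and how much RNA each holds. No one of the 9 genes passed the threshold of an adjusted p under 0.05 (edgeR's quasi-likelihood test with Benjamini-Hochberg adjustment over all genes), while 96 of 11196 genes did, or 0.857%. At an unadjusted p under 0.05 there was 1 member, Gzmk, and 1469 genes in all.

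Gzmk, a granzyme of trypsin-like specificity, stood at 108, 153 and 163 CPM in control mice 1 to 3 and at 75.9, 70.6 and 98.8 in stress mice 1 to 3. Every stress mouse lay below every control mouse, which held for no other member. The share of all genes whose groups did not overlap was not counted. In an exact permutation test, 0.1 is the smallest p that 3 against 3 mice can give. The log2 fold change was -0.74 (standard error 0.19, adjusted p = 0.109 by edgeR), a difference that missed the threshold. Over 13 alternatives the adjusted p ranged from 0.00064 to 0.383, and it was below 0.05 in 5 of them. At an equal depth of 1000 UMIs per cell the change was -1.10 (adjusted p = 0.00064), and without cells of mixed content it was -0.93 (adjusted p = 0.0036), both by edgeR.

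Prf1, the pore former, was at 217, 194 and 214 CPM in control mice and at 156, 120 and 200 in stress mice. Stress mouse 3 lay above control mouse 2, so the groups overlapped, and the log2 fold change was -0.31 (standard error 0.19, edgeR adjusted p = 0.545). At equal depth the change was -0.72 (adjusted p = 0.028) and without cells of mixed content -0.51 (adjusted p = 0.043), so the call on Prf1 depends on how depth and mixed cells are handled.

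Ifng was at 202, 213 and 146 CPM in control mice and at 213, 198 and 149 in stress mice. The group means were 187 ± 35.9 and 187 ± 33.5 (SD, n = 3 mice each). The log2 fold change of 0.07 had an approximate 95% interval from -0.29 to 0.44, by a normal approximation that is too narrow for so few mice. Nkg7 was at 1095, 1095 and 1393 in control mice, against 1351, 1071 and 1407 in stress mice. The groups overlapped for both genes, and the interval of the Nkg7 change ran from -0.17 to 0.52.

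Gzma, a tryptase, ranged from 529 in control mouse 1 to 1054 in control mouse 3, and in stress mice from 374 in mouse 3 to 987 in mouse 1. Gzmb, which cleaves after aspartate and activates caspases, ranged from 376 to 906 in control mice and from 623 to 734 in stress mice. Fasl ranged from 51.1 to 74.1 in control and from 45.4 to 66.6 in stress mice, and Klrd1 from 313 to 603 and from 261 to 491. The groups overlapped for all 4 genes, with log2 fold changes between -0.12 and 0.07. Gzmc was at 0, 36.0 and 6.95 in control mice and at 1.54, 55.2 and 17.7 in stress mice, and mouse 2 of either group was the highest of its group.

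**Figure D2:**
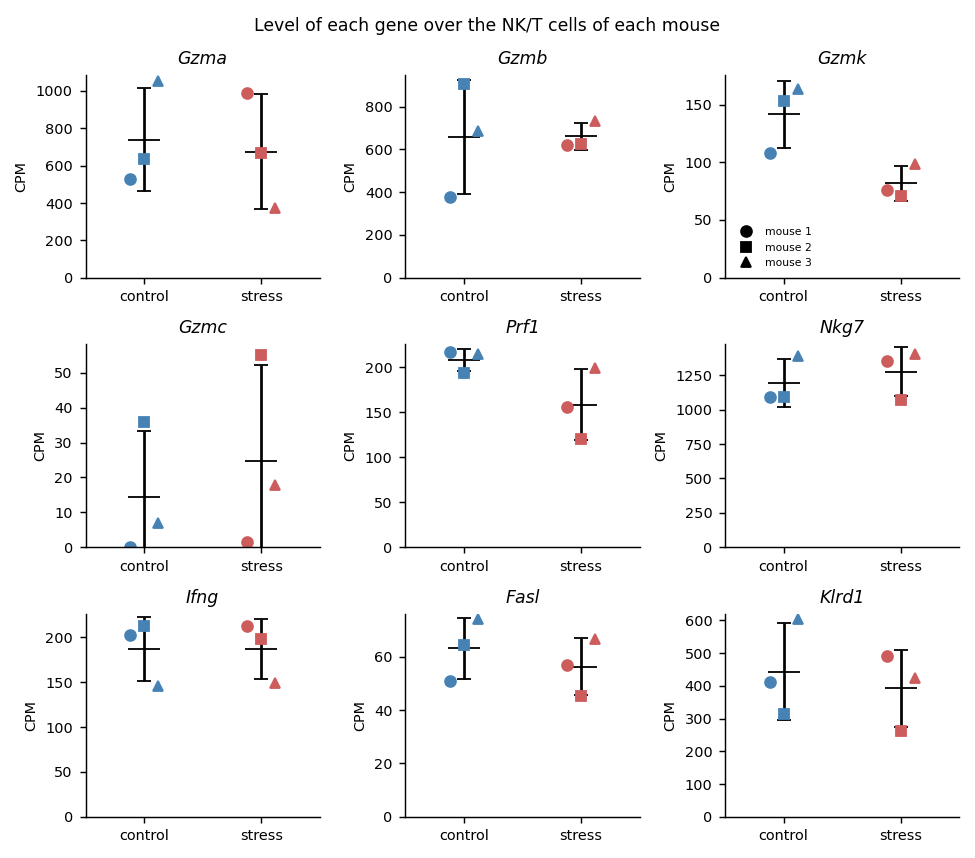
Level of each gene over the NK/T cells of each mouse, in CPM (vertical axis, from 0), for control and stress mice. Points are mice, the horizontal bar is the mean and the error bar 1 SD (n = 3), cut off at 0. Among the genes shown, Gzmk is the only one whose 3 stress mice all lie below its 3 control mice. The share of all genes that lie apart in this way was not counted. The Gzmk change missed the threshold (edgeR adjusted p = 0.109).

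The share of NK/T cells with at least 1 UMI did not separate the groups for any member (exact permutation tests, two-sided, n = 3 mice a group, p from 0.3 to 0.8, where 0.1 is the smallest p that 3 against 3 mice can give). Gzmk was found in 30.1%, 36.8% and 49.2% of control cells and in 24.2%, 31.6% and 35.2% of stress cells. Thinned to 1000 UMIs per cell, the Gzmk shares were 19.6%, 16.7% and 13.5% in control mice, against 7.49%, 8.71% and 9.61% in stress mice. The thinned Prf1 shares were 30.4%, 15.4% and 19.05% in control mice, against 11.2%, 9.95% and 13.7% in stress mice. For these 2 genes the thinned groups did not overlap (exact permutation test, p = 0.1 each, 0.45 adjusted over the 9 genes), and the unthinned values, from deeper stress cells, did overlap. The share of all genes that did not overlap after thinning was not counted. The thinned share of cells with a Cd8a UMI moved with them, at 32.6%, 24.8% and 20.6% in control mice against 18%, 16.8% and 17.6% in stress mice, and its part in the Gzmk and Prf1 values was not tested.

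Summed over the whole tumor, the killing genes were more abundant in stress mice on average. Over all annotated cells, Gzma was at 1.43, 15.5 and 5.10 CPM in control mice and at 13.3, 35.04 and 12.4 in stress mice. Nkg7 was at 3.20, 27.9 and 7.30 against 18.4, 53.9 and 45.0. Control mouse 2 lay above at least 1 stress mouse for all 9 genes, so that the groups overlapped throughout. The ratio of group means lay between 1.56 for Gzmk and 3.73 for Gzmc, and no difference passed a test (exact permutation, p from 0.2 to 0.5). Both of these ratios depend on single mice. Gzmc was at 2.66 in stress mouse 2 against 0.0380 and 0.655 in stress mice 1 and 3. Gzmk was at 4.12 in control mouse 2 against 0.559 and 1.04 in control mice 1 and 3. Over all cells but tumor cells the ratios were smaller, from 1.03 for Gzmk to 2.58 for Gzmc, with Nkg7 at 2.10 and Fasl at 1.59, and Klrd1 alone did not overlap (exact permutation test, p = 0.1, 0.514 adjusted over the 9 genes). Without control mouse 2, which had 674 of the 893 control NK/T cells, none of the 9 genes overlapped between the groups over all cells, Gzmc only by 0.0377 CPM (7 UMIs) in control mouse 3 against 0.0380 (6 UMIs) in stress mouse 1. The overlap came from control mouse 2, so this separation followed from leaving it out and is no test of stress. Over all cells but tumor cells Gzmc still overlapped without that mouse. The share of NK/T cells, given below, also lay apart without it. Because the 9 genes lie mainly in those cells, their separations are not independent of each other. It was not counted how many of all genes lay apart in the same way. A tumor with more NK/T cells and one with more RNA of these genes in each cell cannot be told apart in this sum, and the share of NK/T cells was 0.883%, 5.74% and 1.36% in control and 3.72%, 8.62% and 4.86% in stress mice.

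Within the NK/T class, cells were split by a UMI of Cd8a, which encodes the CD8 alpha chain of cytotoxic T cells. A Cd8a UMI was found in 1302 cells and missing in 1188. The cells with one were deeper, with medians of 3526 to 7253 UMIs per mouse against 2384 to 4675.5. Levels in CPM were compared within each mouse (edgeR's quasi-likelihood test with mouse as a term, Benjamini-Hochberg adjustment). Of the 8 members with enough counts for the test, 6 were higher with Cd8a, where 4.66% of all 9136 genes were, and 1 was lower, where 7.98% were. The median log2 fold change of the members was 0.77, against -0.00 over all genes. Cd8b1, the partner chain of Cd8a, was used as a check and was higher by 1.92.

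Prf1 showed the largest difference among the members tested. With a Cd8a UMI it was at 285, 254 and 234 CPM in control mice, then 205, 166 and 264 in stress mice, and without one at 103, 97.3 and 173 and at 64.4, 62.7 and 77.4. It was higher with Cd8a in 6 of 6 mice, by a log2 fold change of 1.41 (standard error 0.11, edgeR adjusted p = 5.4e-10). The difference was 0.81 at equal depth and 2.08 among cells with a Cd3 UMI, past the threshold in both.

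Gzmb was at 473, 1150 and 771 with Cd8a in control mice, against 217, 516 and 514 without. In stress mice it was at 787, 787 and 926 against 318, 421 and 368. All 6 mice went the same way, at a log2 fold change of 1.09 (standard error 0.08, edgeR adjusted p = 2.4e-10).

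Nkg7 was at 1381, 1306 and 1663 CPM with Cd8a in control mice, against 623, 757 and 827 without, and at 1590, 1274 and 1719 in stress mice, against 908, 813 and 813. Klrd1 was at 492, 372 and 649 in control mice, against 282, 217 and 507, and at 641, 327 and 524 in stress mice, against 212, 177 and 234. Klrd1 and Nkg7 were higher with Cd8a in 6 of 6 mice, by 0.96 and 0.91 on the log2 scale (edgeR adjusted p = 8.6e-08 and 2.7e-10). Gzmk was at 128, 176 and 173 with Cd8a in control mice, against 75.8, 116 and 144 without, and at 85.2, 87.0 and 112 in stress mice, against 58.6, 49.7 and 73.2. Fasl ranged from 51.1 to 88.9 with Cd8a and from 27.1 to 56.2 without. Both were higher in 6 of 6 mice, by 0.63 and 0.58 (edgeR adjusted p = 2.5e-05 and 0.0013). The Gzmk call was lost in a fit with no mouse term (0.62, adjusted p = 0.27) and the Fasl call at equal depth (0.60, adjusted p = 0.12). Fasl was a low signal, with at most 5 UMIs in any cell.

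Ifng did not follow the granule genes. It was at 246, 233 and 144 CPM with Cd8a in control mice, against 130, 179 and 151 without, and at 181, 166 and 126 in stress mice, against 272, 239 and 193. It was higher with Cd8a in control mice 1 and 2 and lower in control mouse 3 and all 3 stress mice. Over all mice the log2 difference was -0.21 (standard error 0.13, edgeR adjusted p = 0.347).

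Gzma also departed from Gzmb and Gzmk. With Cd8a it was at 706, 538 and 735 in control mice, against 238, 794 and 1725 without, and at 1019, 365 and 282 in stress mice, against 927, 1052 and 549. It was higher with Cd8a in 2 of 6 mice, and the fit called it lower (log2 fold change -0.60, standard error 0.19, edgeR adjusted p = 0.030). The direction depended on cells without Cd3, since among cells with a Cd3 UMI the difference was 0.47 (edgeR adjusted p = 0.29). The call was also lost without cells of mixed content (-0.59, adjusted p = 0.0697), without the deepest 5% of cells (-0.55, adjusted p = 0.149) and with no mouse term (-0.51, adjusted p = 0.703). It was lost without control mouse 2 or 3 or without stress mouse 2 or 3 (-0.60, -0.49, -0.36 and -0.49), and DESeq2 gave -0.44 (adjusted p = 0.741).

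Gzmc had too few counts for this test. It was at 3.16 with and 88.5 without Cd8a in control mouse 2, and at 5.85 and 118 in stress mouse 2. In those mice the gene's UMIs lay mainly in the cells without Cd8a, whereas the other mice held between 0 and 29.5 CPM on either side.

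**Figure D3:**
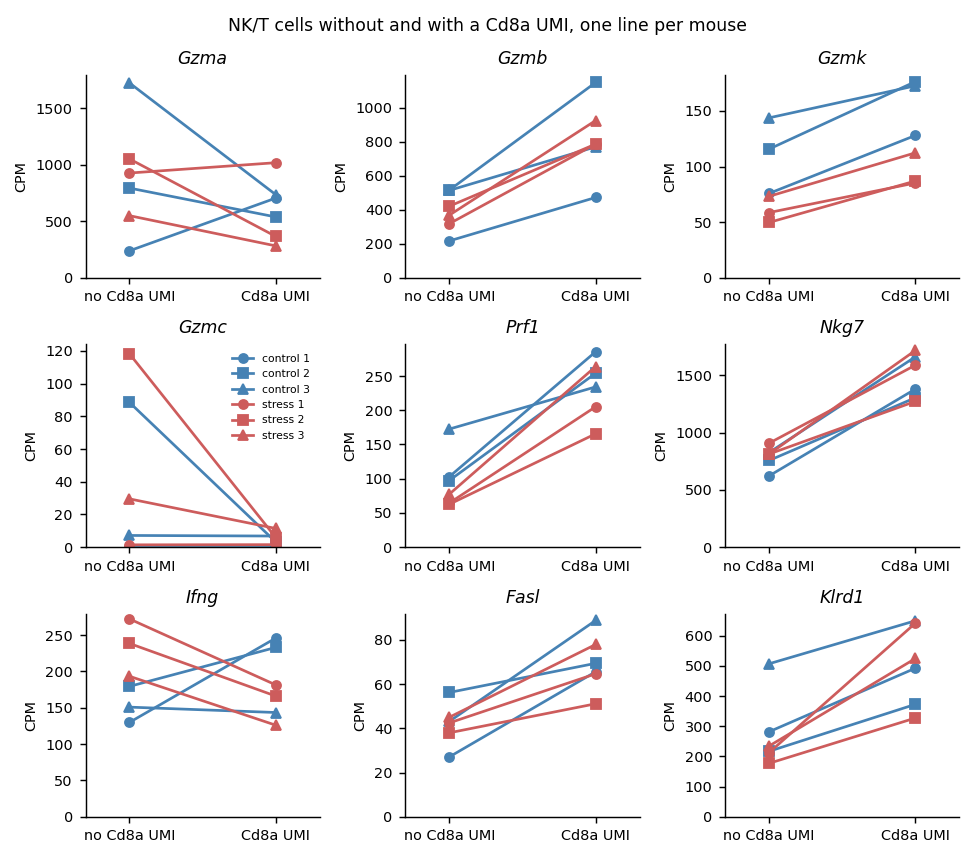
Level of each gene in NK/T cells without and with a Cd8a UMI, in CPM (vertical axis, from 0), with 1 line for each mouse, control in blue and stress in red. The lines of Gzmb, Gzmk, Prf1, Nkg7, Fasl and Klrd1 rise in all 6 mice, and those of Gzma, Gzmc and Ifng go both ways.

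Cells without a Cd8a UMI were of several kinds, so 4 kinds were defined from Cd3, Cd8a, Cd4, Ncr1 and Klrb1c UMIs. There were 1288 cells with Cd3 and Cd8a (CD8 cells below), 394 with Cd3 and Cd4 (CD4 cells), 647 with Cd3 but neither Cd8a nor Cd4, and 83 with Ncr1 or Klrb1c, which encode the NK receptors NKp46 and NK1.1, and no Cd3 (NK-like cells). Cd8b1 was found in 37.7% of the 647 cells with neither, so some of these had a Cd8 chain whose partner was not sampled. Cells were assigned by the presence of a UMI, and a shallow cell can miss its kind.

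A comparison of CD8 with CD4 cells was added after the data had been seen. Of the 8 members tested, 7 were higher in CD8 cells, where 3.9% of 7223 genes were, and 1 was lower, where 6.84% were. Gzma was at 706, 535 and 735 CPM in CD8 cells of control mice and at 1040, 372 and 279 in those of stress mice. In CD4 cells it was at 0, 3.07 and 0 and at 0, 6.12 and 5.47, from 12 UMIs in 394 cells. CD4 cells lay below CD8 cells in every mouse, and the fitted log2 fold change of 6.70 rests on those few counts (edgeR adjusted p = 2.7e-14). Gzma passed the filter on low counts only through CD8 cells, where it is high, so this p adds no support. Prf1 was also low in CD4 cells, with 44 UMIs in all and 0 in control mice 1 and 3. Prf1 was higher in CD8 cells by 3.72, Gzmb by 2.69, Klrd1 by 2.53, Nkg7 by 1.40, Gzmk by 1.25 and Fasl by 1.25 on the log2 scale, each in 6 of 6 mice (edgeR adjusted p between 2.0e-11 and 8.6e-05).

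Of the 8 members tested, Ifng was the one that was higher in CD4 cells. CD8 cells held 246, 235 and 144 CPM in control mice, then 183, 172 and 126 in stress mice, and CD4 cells 167, 353 and 71.0 and 430.5, 451 and 232. It was lower in CD8 cells in 4 of 6 mice, all 3 stress mice among them, at a log2 fold change of -0.72 (standard error 0.19, edgeR adjusted p = 0.0147). The control mice with the other order were 1 and 3, which had 18 and 14 CD4 cells. Gzmc, too low to be tested here, had 240 UMIs in the 394 CD4 cells and 68 in the 1288 CD8 cells. Most of these lay in CD4 cells of control mouse 2 (319 CPM, against 3.26 in its CD8 cells) and stress mouse 2 (112 against 6.04).

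NK-like cells were compared with the Cd3-positive cells in the 4 mice with at least 10 of them, control mouse 2 and the 3 stress mice (23, 13, 25 and 17 cells). Of the 9 members, 3 were higher in NK-like cells, where 3.33% of 8506 genes were, and 1 was lower, where 2.8% were. The median change over all genes in this fit was -0.19. Gzma was at 9597 CPM in the NK-like cells of control mouse 2 and at 2610, 3158 and 3883 in those of stress mice 1 to 3. It was higher than in Cd3-positive cells by 2.97 on the log2 scale (standard error 0.23, edgeR adjusted p = 3.0e-33). Leaving out 1 mouse at a time gave 2.47 to 3.44. The standard error and p draw on the variance of all genes and can be too small for 4 mice. Prf1 was higher by 1.27 and Gzmk lower with a change of -2.04 (edgeR adjusted p = 4.2e-05 and 0.00042). Gzmk had only 2 UMIs in the NK-like cells of control mouse 2 and 2, 1 and 4 in those of stress mice 1 to 3. Its change rests on those few counts. At equal depth the Gzmk change was -3.30 with an adjusted p of 0.0598, above the threshold.

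The Gzmc call in NK-like cells, 1.88 (edgeR adjusted p = 0.0073), rested on stress mouse 3, since without it the change was -1.01 (adjusted p = 0.77). Klrd1 differed by 0.70 (edgeR adjusted p = 0.052) and Fasl by 0.66 (adjusted p = 0.355). The Klrd1 difference passed the threshold in 4 of 10 alternatives and turned direction at equal depth. For Gzmb the difference was 0.05 with a 95% interval from -0.39 to 0.50, for Nkg7 0.15 with an interval from -0.28 to 0.57, and for Ifng -0.06 with an interval from -0.61 to 0.50.

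**Figure D4:**
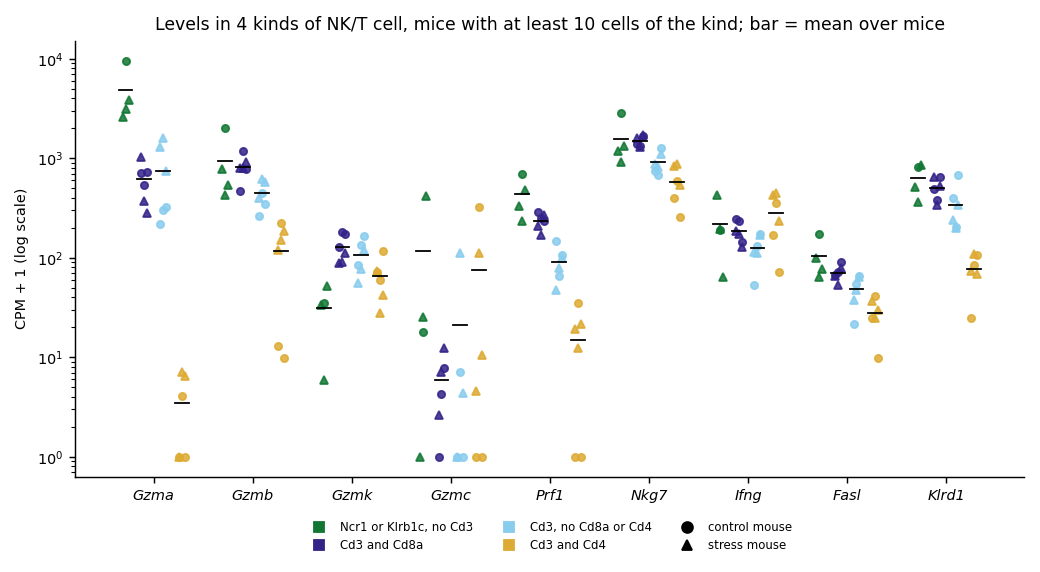
Level of each gene in 4 kinds of NK/T cell, in CPM plus 1 on a log axis. Points are mice with at least 10 cells of the kind (circles control, triangles stress) and the bar is the mean over mice. Gzma lies highest in NK-like cells and near 0 in CD4 cells. Gzmk lies lowest in NK-like cells, where it had few UMIs. The 4 means of Ifng lie between 124 and 284 CPM.

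By the mean over mice, the order of the kinds for Gzma was NK-like (4812 ± 3232 CPM, SD, n = 4 mice), Cd3 with neither (746 ± 578, n = 6), CD8 (611 ± 276, n = 6) and CD4 (2.44 ± 2.86, n = 6). The cells with neither and the CD8 cells differed by less than their SDs over the 6 mice, and their order was opposite in the groups. CD8 cells held more Gzma in all 3 control mice (706 against 219, 535 against 299 and 735 against 320) and less in all 3 stress mice (1040 against 1303, 372 against 1583 and 279 against 753). Without stress mouse 2 the means were 659 in CD8 cells and 579 in cells with neither. For Gzmb the order was NK-like (942 ± 738), CD8 (820 ± 227), neither (443 ± 139) and CD4 (116 ± 89.4), and the first 2 did not differ beyond their spread. The first place of NK-like cells rested on control mouse 2 (2028 against 1171 in CD8 cells), without which the means were 580 in NK-like and 750.3 in CD8 cells. In the 3 stress mice CD8 cells held more (790 against 772, 799 against 425 and 920 against 544). Prf1 had the order NK-like, CD8, neither and CD4 with means of 436, 234, 89.7 and 14.0. Ifng had the order CD4 (284 ± 152), NK-like (218), CD8 (184 ± 48.05) and neither (124 ± 44.1), and the first 3 lay within their spread. Without stress mouse 1 the NK-like mean was 149, below that of CD8 cells. CD8 cells and cells with neither differed by more than either SD, but their ranges over mice overlapped (126 to 246 and 52.1 to 171).

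The transcription factor genes Eomes and Tbx21, named after their values had been seen because their products bind T-box motifs, were also highest in NK-like cells. Eomes was higher there than in Cd3-positive cells by 2.24 and Tbx21 by 1.31 on the log2 scale. Of 11 transcription factor genes tested, 5 were higher (Tbx21, Eomes, Runx3, Irf8 and Nfatc1) and 0 lower. Over all genes 3.33% were higher and 2.8% lower. Gzmk, whose promoter also held the T-box letters, was lower in NK-like cells. A link of these factors or letters to the levels was not tested. Mean Tbx21 was 94.7 CPM in CD8 cells and 77.7 in CD4 cells and mean Eomes 37.7 and 33.2.

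Each gene's RNA was spread over cells in its own way. Of 11931 Gzma UMIs in NK/T cells, 91.3% lay in the 250 cells (10.0%) with at least 10 UMIs, and 1 cell held 988. Of those 250 cells, 130 were CD8 cells, 54 had Cd3 with neither Cd8a nor Cd4, 52 were NK-like and 0 were CD4 cells. Gzmb was less concentrated, with 74.5% of its 13140 UMIs in 402 cells. Nkg7 was found in 2138 of the 2490 cells, and the tenth of cells with the most held 31.1% of its UMIs on average over the mice.

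Gzmc was carried by very few cells. A UMI was found in 57 cells, and 9 cells with at least 10 UMIs held 528 of the 617 UMIs. These 9 cells came from control mouse 2 (3 cells), stress mouse 2 (4 cells) and stress mouse 3 (2 cells), and 4 of them were CD4 cells. The level of Gzmc in a mouse is thus the content of a few cells, which bears on each of its values above.

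For Ifng, 78 cells (3.13%) held 46.0% of 3520 UMIs, and 35 of them were CD8 cells, 25 CD4 cells and 15 cells with neither. CD4 cells made up 25 of 78 of these cells and 394 of 2490 of the class, and 15 of those 25 came from stress mouse 2.

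The genes were found together in cells to different degrees. With every cell thinned to 1000 UMIs, and averaged over the 6 mice, Gzmb was found in 66.0% of cells with a Gzma UMI and in 25.6% of those without, and this order held in 6 of 6 mice. Prf1 was found in 27.3% of cells with Gzmb and 12.2% without (6 of 6 mice). Ifng was found in 14.1% of cells with Gzmb and 16.3% without, higher with Gzmb in 2 of 6 mice, and in 13.0% of cells with Gzma and 16.0% without, although higher with Gzma in 4 of 6 mice. Beside Nkg7 it was found in 19.3% of cells, against 9.37% without (6 of 6 mice). Not every pair of granule genes had such an order: Prf1 was found in 17.7% of cells with Gzmk and 16.3% without, higher with Gzmk in 3 of 6 mice.

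The genes most like each member over the 2490 NK/T cells were found by the mean over mice of Pearson's r within a mouse, among 8959 genes. These correlations share each cell's depth and are descriptions. Gzma was most like Gzmb (r = 0.46), Tyrobp (0.38) and Fcer1g (0.35), the latter encoding signaling adaptors of NK and myeloid receptors. Gzmb was most like Ccl5 (0.46), Gzma (0.46) and Prf1 (0.42), and Prf1 was most like Irf8 (0.44). Nkg7 was most like Ccl5 (0.63) and Klrd1 most like Klre1 (0.47). Gzmk was most like Ccl5 (0.33) and Fasl likewise (0.27).

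Ifng was most like Ccl3 (0.32), Ccl4 (0.26) and Bhlhe40 (0.26), the first 2 encoding chemokines and the last a transcription factor. Its r was -0.01 with Gzmb and 0.10 with Prf1. For Gzmc no gene reached an r of 0.2.

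The change of the Cd8a difference with stress was tested as an interaction. None of 9136 genes passed the threshold (0%, edgeR), while 354 were under an unadjusted p of 0.05. Ifng came nearest among the members, with an interaction of -0.96 on the log2 scale (standard error 0.19, unadjusted p = 3.1e-05, edgeR adjusted p = 0.141), and its adjusted p over 8 alternatives ranged from 0.12 to 0.69. Klrd1 had an interaction of 0.52 (edgeR adjusted p = 1). Within cells with a Cd8a UMI, 64 of 10021 genes differed between stress and control (0.639%), and within cells without one, 63 of 8758 (0.719%). No member was among them in either part (edgeR).

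In the 2 parts taken apart, the stress change of Ifng was -0.32 (edgeR adjusted p = 0.62) with Cd8a and 0.65 (adjusted p = 0.253) without. Gzmk gave -0.71 (adjusted p = 0.142) with and -0.85 (adjusted p = 0.189) without. Prf1 gave -0.20 (adjusted p = 0.766) and -0.74 (adjusted p = 0.280). Gzmk and Prf1 lay below 0 in both parts and missed the threshold in these fits. At an equal depth of 1000 UMIs, with cells split anew by the Cd8a UMIs left, Gzmk was past it in both parts (-1.09 with Cd8a, adjusted p = 0.045, and -1.03 without, adjusted p = 0.0031). Prf1 was then past it with Cd8a (-1.14, adjusted p = 0.0059) and not without (-0.39, adjusted p = 0.448), all by edgeR. Thinning left a Cd8a UMI in 495 cells, against 1302 before. Many cells of the thinned part without Cd8a had therefore held one, and this part is not that of the main fit. Unthinned, Cd3 cells with neither Cd8a nor Cd4 made up 26.9%, 30.6% and 27.0% of NK/T cells in control mice. In stress mice they made up 22.7%, 26.5% and 20.4%. CD4 cells made up 19.4%, 9.64% and 11.1% in control mice, against 18.2%, 19.3% and 17.7% in stress mice. The part of this make-up in the changes without Cd8a was not tested.

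**Figure D5:**
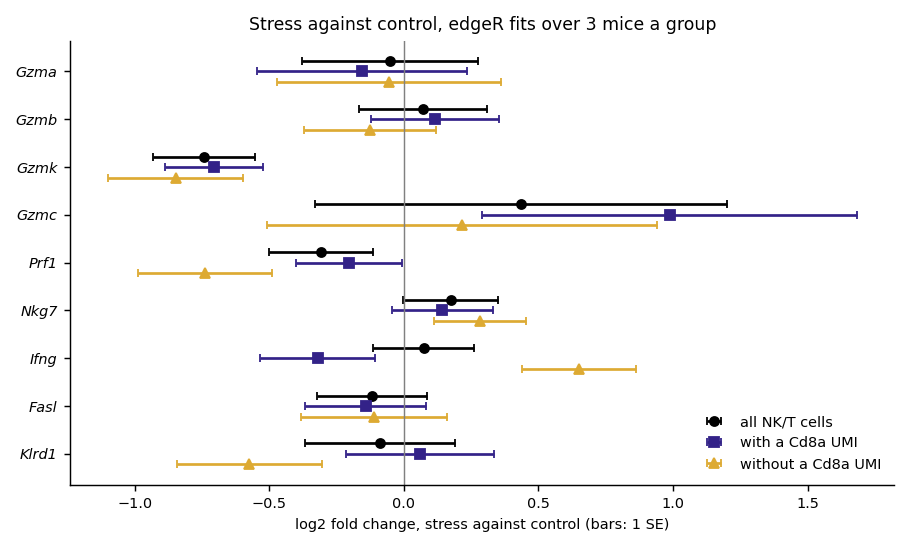
Log2 fold change of stress against control for each gene (horizontal axis, bars 1 SE, 3 mice a group) over all NK/T cells, over those with and over those without a Cd8a UMI, from edgeR fits. Gzmk lies below 0 in all 3 fits, and Ifng lies on opposite sides of 0 in the cells with and without a Cd8a UMI, with no change past the threshold.

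Other genes of the killing program were taken as lists chosen with earlier results of these data known. In the stress comparison over all NK/T cells, 1 of the 80 genes of these 8 lists that were tested passed the threshold, or 1.25%, beside 0.857% of all genes. It was Jak2, a kinase of the interferon gamma receptor, at 0.79 (standard error 0.17, edgeR adjusted p = 0.048). Within cells without Cd8a it was 1 of 77 (beside 0.719% of all genes), Xcl1, a chemokine that attracts dendritic cells, at 1.65 (edgeR adjusted p = 0.0021).

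With against without Cd8a, the lists divided. The shares over all genes were 4.66% higher and 7.98% lower. Of 17 lectin and related receptor genes tested, 7 were higher and 6 lower, the inhibitory receptor chain Klrc1 higher by 1.12 and the Ly49 gene Klra7 lower with a change of -3.60. Of 8 receptor genes for cytokines that induce Ifng, 0 were higher and 4 lower, with Il18r1 at -0.83, and the list's median was -0.39 against -0.00 over all genes. Of 7 granule protein genes 3 were higher (Ctsw, Cst7 and Gnptab) and 1 lower (Srgn, which encodes the granule proteoglycan serglycin). Of 7 exocytosis genes 1 was higher and 1 lower, Stx11 being the lower one. Of 11 transcription factor genes 2 were higher (Runx3 and Zeb2) and 4 lower, Bhlhe40 among them.

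In NK-like cells against Cd3-positive cells, 14 of 19 receptor genes tested were higher and 0 lower, beside 3.33% higher and 2.8% lower over all genes, with Klra8 at 7.38, Tyrobp at 5.38 and Fcer1g at 4.79 on the log2 scale. Klra8 was also among the NK markers used to check the class. Of 8 cytokine receptor genes 4 were higher and 1 lower, Il12rb2 at 2.43. Of the 3 serpin genes, Serpinb9 was higher by 1.98 and Serpinb6b by 1.61, and Serpinb6a was lower with a change of -1.25. CD8 cells against CD4 cells were higher in 9 of 12 receptor genes tested and lower in 0, beside 3.9% and 6.84% over all genes, with Klrk1, which encodes NKG2D, at 4.39, while the cytokine gene Csf2 was lower with a change of -3.28.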

How the data were processed

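Single-cell libraries (10x Genomics, 1 per mouse) of liver tumors from 3 control and 3 stress mice were used. The deposited matrices hold whole UMI counts, not normalized, which the authors made with Cell Ranger on mm10. A cell table gives their annotation from Seurat v4.3.0, after Scrublet v0.2.3 had removed doublets and cells with over 20% mitochondrial UMIs or under 200 genes had been dropped. UMI totals in that table equal the matrix totals for 68.3% to 76.7% of cells per library, and the matrix counts were used. No further cell filter or doublet caller was applied. Annotated cells per library held 149558935 to 187728350 UMIs. UMIs were summed per mouse and cell kind and tested with edgeR 4.0.16 (quasi-likelihood, TMM, filterByExpr, Benjamini-Hochberg adjustment over all genes, threshold 0.05), tested beforehand on simulated data. Standard errors are the log2 fold change divided by the root of F. Single values were compared with exact permutation tests over mice. Thinning drew 1000 UMIs per cell and left out shallower cells. NK-like cells were tested in mice with at least 10 of them. Genes and lists were chosen with earlier results of these data known. Named list genes were the up to 10 with the smallest adjusted p per comparison, and up to 3 genes were named per member by likeness. Where others are named, they were chosen after their values were seen. DESeq2 1.42.0 was an alternative. Mice were the replicates throughout, and 0 columns of unknown origin were left out.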

Additional observations from a re-analysis of the deposited data

How the results depend on the processing

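Over 547 recomputed values of single members, 457 kept their direction and their side of the threshold, 61 turned direction, 17 passed the threshold newly and 12 lost it. The cause of these moves was not tested.

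Counts of genes past the threshold depended on the filter, mixed cells, the block and depth. Stress against control over NK/T cells gave 217 genes at equal depth (1000 UMIs per cell), 479 with no filter on low counts, 430 without cells of mixed content and, with a replicate block, 229. The Cd8a comparison gave 236 with no mouse term. At equal depth it gave 124, its interaction with stress 2, the Cd8a-negative stress comparison 172, NK-like against Cd3-positive cells 140, and the shares of 2 members (Gzmk, Prf1) and 2 kinds (cells with Cd8a, with and without asking for Cd3) did not overlap, while the share of Cd3 cells with neither, apart before, did. In CPM of all cells but tumor cells, 1 member did not overlap between groups (Klrd1). Such overlaps were counted for the members and kinds only, not over all genes. Labels do not pair the mice by number, and the correlations of same-numbered mice were 0.15, 0.22 and 0.08, with control mouse 3 correlating best with stress mouse 1. The replicate block gave 198 genes with and 149 without Cd8a, with Gzmk at -0.77, -0.72 and -0.91 (edgeR adjusted p = 0.026, 0.026 and 0.036) over all NK/T cells, with and without Cd8a. Of calls of higher genes in NK-like cells, edgeR gave 283 of 521 and DESeq2 266 of 385.

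Directions turned for small main changes, such as 0.07 for Gzmb under stress, and for larger ones. Among the larger were -0.60 for Gzma with against without Cd8a and 0.70 for Klrd1 in NK-like cells. Over NK/T cells under stress the turned directions were Gzmb (-0.10 at equal depth, -0.11 without the deepest 5% of cells, -0.13 without mixed cells), Gzmc (-0.24 at equal depth) and Ifng (-0.039 without the deepest cells, -0.0088 without mixed cells). With against without Cd8a they were Gzma (0.47 in Cd3-positive cells, 6.70 for CD8 against CD4 cells) and Ifng (0.060 at equal depth). The interactions at equal depth were Gzma 0.40, Gzmb -0.24, Gzmk -0.019, Prf1 -0.75 and Fasl -0.52. Among Cd8a-positive cells at equal depth Gzma gave 0.27 and Gzmb -0.30, and among Cd8a-negative cells Gzmb 0.028, Gzmc -0.42 and, with the block, Gzma 0.17. At equal depth the cells were split anew by the Cd8a UMIs left. In NK-like cells Gzmb gave -0.12 at equal depth, -0.12 with no filter and -0.14 without mixed cells, Nkg7 -0.028 with no filter and -0.045 without mixed cells, and Klrd1 -0.034 at equal depth.

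Leaving out 1 mouse at a time gave 38 to 125 genes for stress over NK/T cells, lowest when control mouse 1 was left out (control mouse 3: 40, stress mouse 1: 59), 721 to 1124 for Cd8a, lowest without stress mouse 3, 0 to 3 for the interaction, 32 to 89 with Cd8a, 20 to 128 without Cd8a and 318 to 687 for NK-like cells, lowest without stress mouse 3. Members whose shares did not overlap numbered 0 to 2, kinds 1 to 2, and members over all cells 0 to 9, with no such count over all genes. For stress over NK/T cells the members' ranges were -0.49 to 0.32 (Gzma), -0.19 to 0.36 (Gzmb), -0.79 to 2.64 (Gzmc), -0.073 to 0.22 (Ifng), -0.27 to 0.063 (Fasl) and -0.33 to 0.24 (Klrd1). For the interaction they were -0.93 to 0.04 (Gzma), -0.0046 to 0.36 (Gzmb) and -0.58 to 0.16 (Fasl). Among Cd8a-positive cells they were -1.005 to 0.17 (Gzma), -0.12 to 0.44 (Gzmb), -0.31 to 0.046 (Fasl) and -0.22 to 0.34 (Klrd1). Among Cd8a-negative cells they were -0.47 to 0.72 (Gzma), -0.39 to 0.056 (Gzmb), -1.34 to 3.75 (Gzmc) and -0.24 to 0.26 (Fasl). In NK-like cells they were -0.33 to 0.26 (Gzmb), -1.01 to 3.37 (Gzmc), -0.25 to 0.26 (Nkg7) and -0.46 to 0.17 (Ifng), and Klrd1 passed the threshold without stress mouse 1 (0.89) or 2 (0.74).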

Other observations

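NK-like cells were few in control mice (1, 23 and 4 cells) and in stress mice (13, 25 and 17 cells). In these cells Gzma was at 13781, 9597 and 17015 CPM in control mice 1 to 3 and at 2610, 3158 and 3883 in stress mice 1 to 3. Gzmb was at 8388, 2028 and 3810 in control mice and at 772, 425 and 544 in stress mice, and Prf1 at 2397, 699 and 1385 against 328, 234 and 481. For these 3 genes every stress mouse lay below every control mouse, but 2 of the control values come from 1 and 4 cells, so no test was made. It was not counted how many of all genes lay apart in these few cells. In the other 6 genes the groups overlapped.

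The cells with Cd3 but neither Cd8a nor Cd4 went the other way for Gzma. They held 219, 299 and 320 CPM of Gzma in control mice, against 1303, 1583 and 753 in stress mice, from 25, 206 and 34 cells and 61, 216 and 105 cells. Cells with at least 10 Gzma UMIs numbered 1, 10 and 1 against 9, 21 and 12, and the share of cells with a Gzma UMI overlapped between the groups (8.0%, 17.0% and 14.7% against 18%, 21.8% and 15.2%). Without the cells that held an Ncr1 or Klrb1c UMI, the values were 226, 176 and 315 against 1254, 683 and 668. None of the other 8 genes separated the groups in these cells, no test was made, and the share of all genes that separated them was not counted.

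The number of killing genes found per cell, out of Gzma, Gzmb, Gzmk, Prf1, Ifng and Fasl, was also counted. Cells with at least 3 of them made up 29.0%, 40.9% and 49.2% of NK/T cells in control mice, against 39.0%, 38.2% and 42.8% in stress mice. At equal depth (1000 UMIs per cell) they made up 13.0%, 12.1% and 15.1% in control mice, against 7.49%, 6.34% and 5.29% in stress mice, and the groups no longer overlapped. No test was made, and 3 against 3 mice can give no p below 0.1. The share of cells with a Cd8a UMI at that depth also separated the groups (32.6%, 24.8% and 20.6% against 18%, 16.8% and 17.6%), and its part in this was not tested. Unthinned, the share with Cd8a overlapped between the groups. Thinned or not, the cells with none of the genes did not separate the groups.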
